A study of Mus musculus with 6 samples.

Results

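The genes of the heat shock chaperones of the cytosol and mitochondria were compared in hearts of 3 groups of mice: 71 genes with 166 probe sets, out of 18193 genes with 34945 single-symbol probe sets. They were taken by symbol: Hspa, Hspb, Hspd, Hspe, Hsph, Dnaja, Dnajb, Dnajc or Bag followed by a number, Hsp90a genes, Cryab and Hsf1, without 5 chaperones of the endoplasmic reticulum (Hspa5, Dnajb9, Dnajb11, Dnajc3 and Dnajc10). Hsf1 and Hsp90ab1 were not analysed here. Where a gene had more than 1 probe set (44 genes), the one with the highest mean signal stood for it, and 63 of the 71 genes were bright enough to be tested. The other 8 (Dnajb3, Dnajb7, Dnajb13, Dnajc5b, Dnajc5g, Dnajc6, Dnajc22 and Hspb9) had no signal above 49.9 on any array. The symbols also take in genes whose products are known from other compartments or tasks, such as Dnajc1 of the endoplasmic reticulum membrane and Hspb11, a component of cilia, so the name fits most members but not all.

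All mice were male, aged 2 months and on a B6 background, and 2 heart RNA samples per group were hybridised to Affymetrix arrays, 6 in all. RKIP-transgenic mice carried RKIP behind the alpha-MHC promoter, which is active in heart muscle cells. RKIP binds and inhibits RAF kinases and also the GRKs, the kinases that phosphorylate activated G-protein-coupled receptors. GRK-Inh-transgenic mice made a peptide that inhibits GRKs, also in the myocardium; the labels name no promoter for it. B6 control mice were wild type. The labels give neither the number of founder lines nor the number of animals behind the 2 arrays of each group. The p-values therefore rest on the spread between samples that may differ only technically. Whole hearts were measured, so fewer cells of a type and less RNA per cell cannot be told apart.

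Chaperones bind unfolded protein and help it fold, keep it soluble or hand it on for degradation. HSP70 proteins do this in cycles of ATP binding: J proteins (DNAJ) deliver the client and start ATP hydrolysis, HSP110 proteins and BAG proteins exchange the nucleotide, and HSP90 takes over clients such as kinases and steroid receptors. Small heat shock proteins hold clients without ATP and are abundant in heart muscle, where they protect the sarcomere and its filaments. Many of these genes carry heat shock elements, repeats of GAA and its complement TTC, to which heat shock factor HSF1 binds when unfolded protein accumulates.

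The promoters of 5 members show the sequences referred to in the results. Hspa1b and Hspa1a were the members with the largest change, Hspb1 and Hsph1 changed in the same comparison, and Hspe1 carried a long element without a call in it. Each is the RefSeq window of 300 bases on GRCm38.p6, from 250 bases before to 50 after the annotated start, written 5′ to 3′ on the gene's strand. Capitals mark every match to GAANNTTC, TTCNNGAA or the longer element of 3 alternating GAA and TTC units with 2 free bases between neighbours. The Hspa1b window is chr17:34959189-34959488, minus strand. For Hspa1a it is chr17:34972107-34972406, minus strand. Hspb1 lies at chr5:135887669-135887968, plus strand, and Hsph1 at chr5:149636266-149636565, minus strand (1 of its 2 windows). The Hspe1 window is chr1:55087898-55088197, plus strand.
Hspa1b: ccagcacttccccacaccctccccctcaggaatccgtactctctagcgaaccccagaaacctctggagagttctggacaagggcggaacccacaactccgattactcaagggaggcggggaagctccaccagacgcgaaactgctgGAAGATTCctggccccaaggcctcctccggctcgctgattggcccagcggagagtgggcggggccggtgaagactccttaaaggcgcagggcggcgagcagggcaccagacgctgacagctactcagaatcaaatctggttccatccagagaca
Hspa1a: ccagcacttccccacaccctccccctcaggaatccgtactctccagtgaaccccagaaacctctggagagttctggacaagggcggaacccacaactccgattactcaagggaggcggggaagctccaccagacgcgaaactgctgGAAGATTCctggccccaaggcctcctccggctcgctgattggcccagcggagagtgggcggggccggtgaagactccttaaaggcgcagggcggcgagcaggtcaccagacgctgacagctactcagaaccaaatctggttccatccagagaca
Hspb1: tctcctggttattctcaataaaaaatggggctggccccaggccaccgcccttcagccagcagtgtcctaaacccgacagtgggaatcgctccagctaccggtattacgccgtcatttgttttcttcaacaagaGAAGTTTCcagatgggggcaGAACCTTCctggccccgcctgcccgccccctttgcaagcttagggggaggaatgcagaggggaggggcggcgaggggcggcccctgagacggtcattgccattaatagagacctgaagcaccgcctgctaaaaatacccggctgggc
Hsph1: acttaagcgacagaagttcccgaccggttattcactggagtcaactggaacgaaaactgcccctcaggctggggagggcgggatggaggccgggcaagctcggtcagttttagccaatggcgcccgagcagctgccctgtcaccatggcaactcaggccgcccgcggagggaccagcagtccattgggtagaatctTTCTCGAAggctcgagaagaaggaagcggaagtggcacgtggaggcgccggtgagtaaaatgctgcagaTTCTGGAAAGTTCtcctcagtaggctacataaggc
Hspe1: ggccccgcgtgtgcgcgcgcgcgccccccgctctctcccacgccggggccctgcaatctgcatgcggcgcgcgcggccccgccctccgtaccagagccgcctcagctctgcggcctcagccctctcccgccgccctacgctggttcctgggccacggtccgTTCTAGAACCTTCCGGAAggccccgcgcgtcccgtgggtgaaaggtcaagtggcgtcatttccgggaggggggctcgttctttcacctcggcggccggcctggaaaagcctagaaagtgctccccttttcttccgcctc

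The Hspa1a and Hspa1b windows were identical at 296 of 300 bases (98.7%), and each held 1 match to GAANNTTC, starting 104 bases before the start site. Both genes and Hspa1l are neighbours on chromosome 17. The coding parts of Hspa1a and Hspa1b are near-identical too, so their signals cannot be assigned to either gene with certainty. Hspb1 held 2 such matches, at -117 and -97 from the start. In Hsph1 a 3-unit element began at position 15 of the transcribed side, and in Hspe1 it began at -89 and again, overlapping, at -84. Hspe1 and Hspd1 are divergent neighbours on chromosome 1, and their windows share 285 bases and therefore the same element.

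Promoter windows were found for 56 of the 71 members (74 windows). The 3-unit element, searched on both strands, lay in 4 of these genes (Hsph1, Hspd1, Hspe1 and Dnajb6), against 0.662% of the 27025 genes of the promoter table (179 genes). GAANNTTC, which is its own reverse complement and is part of the longer element, was present in 8 of 15 members with a window that were called higher in GRK-Inh-transgenic than in control hearts (53.3%), a comparison in which 13.1% of all tested genes were called in either direction. These were Hspa1a, Hspa1b, Hspb1, Hspb8, Hsph1, Dnaja1, Dnaja4 and Bag3. The 15 include Hspa1l, a gene dim in control hearts, whose window held none. It was present in 6 of 35 tested members without a call in that comparison (17.1%), among them Hspd1 and Hspe1, and in 9.04% of all genes of the table. By contrast, the 3-unit element lay in 1 of the 15 called members (Hsph1, 6.67%) and in 3 of the 35 without a call (8.57%). Its share was thus not higher among called members, unlike that of GAANNTTC, but these counts are small. The gene shares count a gene with a match in any of its windows. They also count Hspa1a and Hspa1b as separate genes despite their near-identical windows. Over windows, GAANNTTC was found in 37.5% of those of called members and 16.3% of those of tested members without a call. Its share of all windows was 7.86%. TTCNNGAA was found in 9.46% of member windows and 8.52% of all windows. These shares are descriptions, and a match is not a measured binding site.

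Each array had been scaled by the authors to the same trimmed mean, and medians were 50.4 to 55.2. Over the 11254 tested genes log2 differences had an SD of 0.206 to 0.209 for arrays of 1 group and of 0.275 to 0.314 for arrays of different groups. All 8 cardiomyocyte markers were measured at high signal on every array (summed signal 221876 to 237702), and 1 of them was called lower in RKIP-transgenic hearts. Summed fibroblast markers were 28905 to 29723 in GRK-Inh-transgenic, 31726 to 31967 in RKIP-transgenic and 38684 to 40178 in control hearts, with 7 and 6 of 8 markers called lower than in control. Smooth muscle and pericyte markers were also lower, with 4 of 8 called in GRK-Inh-transgenic and 6 of 8 in RKIP-transgenic hearts. Of the 8 macrophage markers 3 were called lower in GRK-Inh-transgenic and 1 in RKIP-transgenic hearts, and of the 8 endothelial markers 2 in each line. Summed atrial markers were 38401 to 39024 in RKIP-transgenic and 44179 to 44496 in the other hearts, with 2 of 3 called lower in RKIP-transgenic than in control hearts. Summed adipocyte markers were 163 to 167 in RKIP-transgenic and 406 to 558 in the other hearts, and 1 of 2 tested was called lower in RKIP-transgenic than in control hearts. Lymphocyte markers summed to 1418 to 1472 in GRK-Inh-transgenic and 593 to 710 in the other hearts, a gap carried mostly by the immunoglobulin gene Ighm (837 to 848 against 103 to 188). The other B-cell genes of the list had low signals. Ms4a1 gave 93.2 to 96.4 in GRK-Inh-transgenic and 35.1 to 64.4 in the other hearts. Cd79b gave 52 to 56 against 30.4 to 44.5, and Cd79a gave 27.6 to 35.8 against 4.7 to 30.4. Ptprc, which marks all leukocytes, gave 391 to 426 in GRK-Inh-transgenic and 369 to 392 in the other hearts, and Cd3e and Cd3g of T cells were at or below 8.5 in GRK-Inh-transgenic hearts. In GRK-Inh-transgenic against RKIP-transgenic hearts, 3 of 8 endothelial markers were called higher (summed signal 6050 to 6184 against 5324 to 5364). Of 8 smooth muscle and pericyte markers 2 were higher and 1 lower, and of 8 macrophage markers 2 were lower. Among tested markers, 2 of 3 lymphocyte, 1 of 3 atrial and 1 of 2 adipocyte markers were higher. For fibroblasts 1 of 8 was lower, and no cardiomyocyte marker was called. The 3′ to 5′ ratio of the actin control was 3.11 and 3.25 on the control arrays and 2.92 to 3.03 on the others. The part of these differences in the chaperone results was not tested. Pebp1, the mouse gene for RKIP, gave 9102 and 9140 on the RKIP-transgenic and 9292 and 8766 on the control arrays and was not called (log2 fold change 0.02 ± 0.041). The labels give neither the species of the transgene nor its 3′ end, so this does not check them.

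In GRK-Inh-transgenic against B6 control hearts, 17 of the 63 tested members were higher and 0 lower, or 16 of 62 without Hspa1l, a gene dim in control hearts that was tested only because it was brighter in the other groups. A gene was called at a limma adjusted p under 0.05 (Benjamini-Hochberg over 11254 genes), a rule that called 13.1% of all tested genes in this comparison, 5.86% as higher and 7.27% as lower. The median log2 fold change was 0.13 over the members and -0.03 over all tested genes. By role, the calls comprised 4 of 10 HSP70 genes (3 of 9 without Hspa1l), 3 of 3 HSP110 genes, the 1 HSP90 gene, 2 of 8 small heat shock genes, 2 of 4 type A J proteins, 4 of 8 type B J proteins and 1 of 6 BAG genes. None of the 21 tested type C J proteins and neither mitochondrial chaperonin gene was called. An unadjusted limma p under 0.05 was found for 5 and 2 of them, and for 3199 of all 11254 tested genes. The 5 of 21 are thus not above the share of all tested genes.

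**Figure D1:**
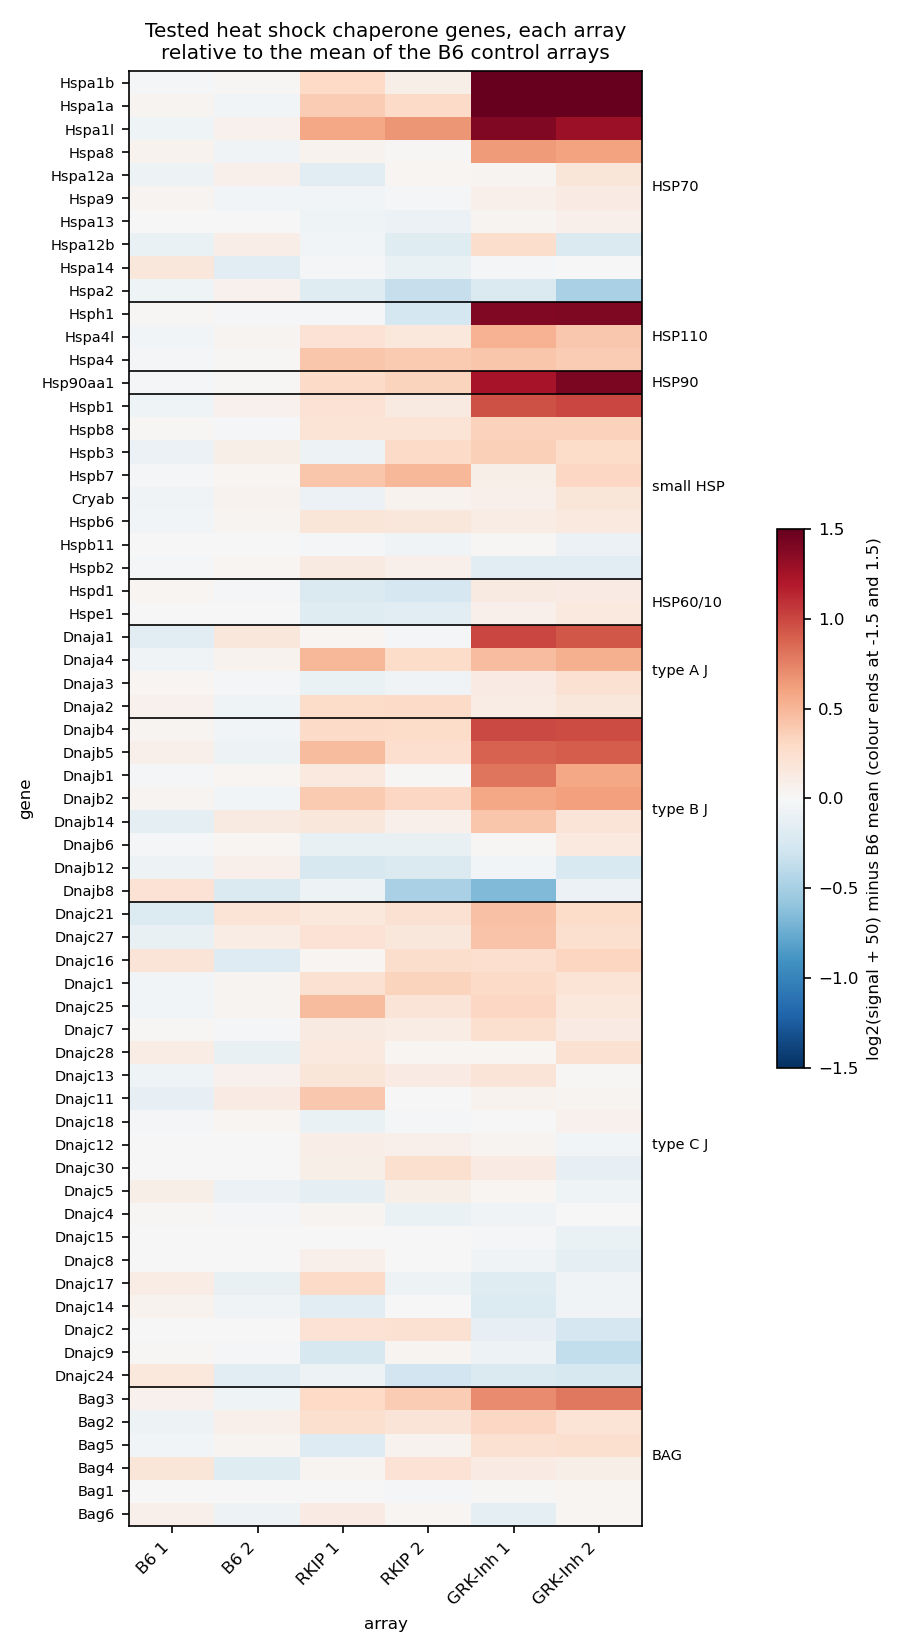
Each row is 1 of the 63 tested genes, grouped by role, and each column 1 of the 6 arrays. Colour is log2(signal + 50) minus the mean of both control arrays, with values beyond 1.5 drawn in the end colour (2 genes). The 2 GRK-Inh-transgenic columns are red through the top of the HSP70, HSP110, type A and type B blocks, and the type C block has paler colours.

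Of the inducible HSP70 genes, Hspa1b gave signals of 322 and 330 in control, 414 and 348 in RKIP-transgenic and 3185 and 3188 in GRK-Inh-transgenic hearts. Its log2 fold change on log2(signal + 50), the scale of all fold changes here, was 3.10 ± 0.087 (± SE, adjusted p = 8.03e-09, limma), or 8.60-fold. Hspa1a gave 153 and 143 in control, 206 and 192 in RKIP-transgenic and 1440 and 1662 in GRK-Inh-transgenic hearts, and rose by 3.02 ± 0.11 (adjusted p = 4.77e-08). For both genes the GRK-Inh-transgenic arrays lay far above the other 4 arrays, and the RKIP-transgenic arrays lay slightly above the control arrays. The difference between RKIP-transgenic and control was not called for either (0.19 ± 0.087, adjusted p = 0.196, and 0.33 ± 0.11, adjusted p = 0.0728). Without the first RKIP-transgenic array the Hspa1b value was 0.08, and without the second it was 0.30.

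Hspa1l, the third gene of that cluster and known mainly from testis, was dim in control hearts. Its signals were 43.5 and 51.7 in control, 95.4 and 104 in RKIP-transgenic and 205 and 188 in GRK-Inh-transgenic hearts. The control signals lay on either side of 50.2, the signal that corresponds to the filter on low values, so the gene was tested only because it was brighter in the other groups and had to differ. Its values are therefore given as a description with no test. The 3 groups did not overlap, in the order control, RKIP-transgenic, GRK-Inh-transgenic. The log2 fold change against control was 1.33 in GRK-Inh-transgenic and 0.62 in RKIP-transgenic hearts, and these sizes depend on the offset: with 200 in place of 50 they were 0.68 and 0.28.

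The constitutive HSP70 gene Hspa8, whose product uncoats clathrin vesicles and folds new proteins, gave 17255 and 16134 in control, 17241 and 16863 in RKIP-transgenic and 26095 and 25299 in GRK-Inh-transgenic hearts. Both GRK-Inh-transgenic arrays were above all others, while RKIP-transgenic and control arrays overlapped. The rise in GRK-Inh-transgenic hearts was 0.62 ± 0.039 (adjusted p = 3.47e-06), a change of 1.54-fold, and the RKIP-transgenic difference was 0.03 ± 0.039, with a 95% interval of -0.06 to 0.12. The mean over all Hspa8 probe sets rose less (0.39), since 1 of the 4 tested probe sets had a log2 fold change of -0.60 (adjusted p = 0.0599). Hspa9, the mitochondrial HSP70, gave 4712 and 4414 in control, 4427 and 4453 in RKIP-transgenic and 4803 and 4980 in GRK-Inh-transgenic hearts and was not called (0.10 ± 0.048, adjusted p = 0.204). Another Hspa9 probe set was called when probe sets were tested one by one (0.27, adjusted p = 0.00345).

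HSP110 proteins, relatives of HSP70, release its nucleotide. Hsph1, which encodes the heat-inducible member, gave 759 and 741 in control, 741 and 615 in RKIP-transgenic and 2052 and 2057 in GRK-Inh-transgenic hearts, and rose by 1.40 ± 0.085 in GRK-Inh-transgenic hearts (adjusted p = 2.61e-06). One RKIP-transgenic array lay among the control arrays and the other below them, and that difference was not called (-0.14 ± 0.085, adjusted p = 0.342). Hspa4 showed another pattern, with signals of 2580 and 2665 in control, 3509 and 3454 in RKIP-transgenic and 3520 and 3424 in GRK-Inh-transgenic hearts. Here both transgenic groups lay above control at the same height, by 0.40 ± 0.048 (adjusted p = 0.000352) and 0.40 ± 0.048 (adjusted p = 0.000451). This rests on 1 of 3 tested probe sets: with the mean over probe sets the values were 0.15 (adjusted p = 0.181) and 0.06 (adjusted p = 0.615), and neither was called. Hspa4l rose in GRK-Inh-transgenic hearts by 0.46 ± 0.076 (adjusted p = 0.00234).

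Hsp90aa1, the stress-inducible cytosolic HSP90, gave 3224 and 3315 in control, 3985 and 4118 in RKIP-transgenic and 7782 and 8768 in GRK-Inh-transgenic hearts. The 3 groups did not overlap. The rise was 1.32 ± 0.057 in GRK-Inh-transgenic hearts (adjusted p = 1.97e-07), or 2.50-fold, and 0.31 ± 0.057 in RKIP-transgenic hearts (adjusted p = 0.00701). Averaged over its probe sets the changes were smaller, 0.88 and 0.19, and the RKIP-transgenic call was then lost (adjusted p = 0.276). That call was also lost without the first control array (adjusted p = 0.0602).

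Among small heat shock proteins, Hspb1 (HSP27), which caps actin filaments and holds unfolded clients, gave 5118 and 5565 in control, 6200 and 5856 in RKIP-transgenic and 10425 and 10782 in GRK-Inh-transgenic hearts. Both GRK-Inh-transgenic signals were well above the rest, with a rise of 0.98 ± 0.051 (adjusted p = 7.30e-07). The RKIP-transgenic arrays lay above the control arrays without a call (0.17 ± 0.051, adjusted p = 0.0524). Hspb8, the partner of BAG3 in selective autophagy of damaged filament proteins, gave 4474 and 4345 in control, 5089 and 5078 in RKIP-transgenic and 5608 and 5595 in GRK-Inh-transgenic hearts. It rose in both lines, by 0.34 ± 0.042 (adjusted p = 0.000403) in GRK-Inh-transgenic and 0.20 ± 0.042 (adjusted p = 0.012) in RKIP-transgenic hearts. Cryab, the alphaB-crystallin of the sarcomere, gave 25199 and 27227 in control, 24644 and 27147 in RKIP-transgenic and 27714 and 29767 in GRK-Inh-transgenic hearts and was not called (0.13 ± 0.053, adjusted p = 0.13, in GRK-Inh-transgenic, and -0.02 ± 0.053 in RKIP-transgenic hearts).

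Hspb7, a small heat shock protein of the heart that binds filamin C, had its highest signals in RKIP-transgenic hearts. It gave 16656 and 17425 in control, 22809 and 24142 in RKIP-transgenic and 18144 and 21074 in GRK-Inh-transgenic hearts. The RKIP-transgenic arrays were the highest, and the GRK-Inh-transgenic arrays fell between the groups. RKIP-transgenic exceeded control hearts by 0.46 ± 0.060 (adjusted p = 0.000805), and the GRK-Inh-transgenic difference from control was not called (0.20 ± 0.060, adjusted p = 0.0549). GRK-Inh-transgenic was lower than RKIP-transgenic by a log2 fold change of -0.26 ± 0.060 (adjusted p = 0.0232), but this call was lost without the first GRK-Inh-transgenic array (-0.15, adjusted p = 0.149) or the second RKIP-transgenic array (-0.22, adjusted p = 0.121). Both other probe sets of Hspb7 gave RKIP-transgenic differences of the same sign (0.57 and 0.48).

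**Figure D2:**
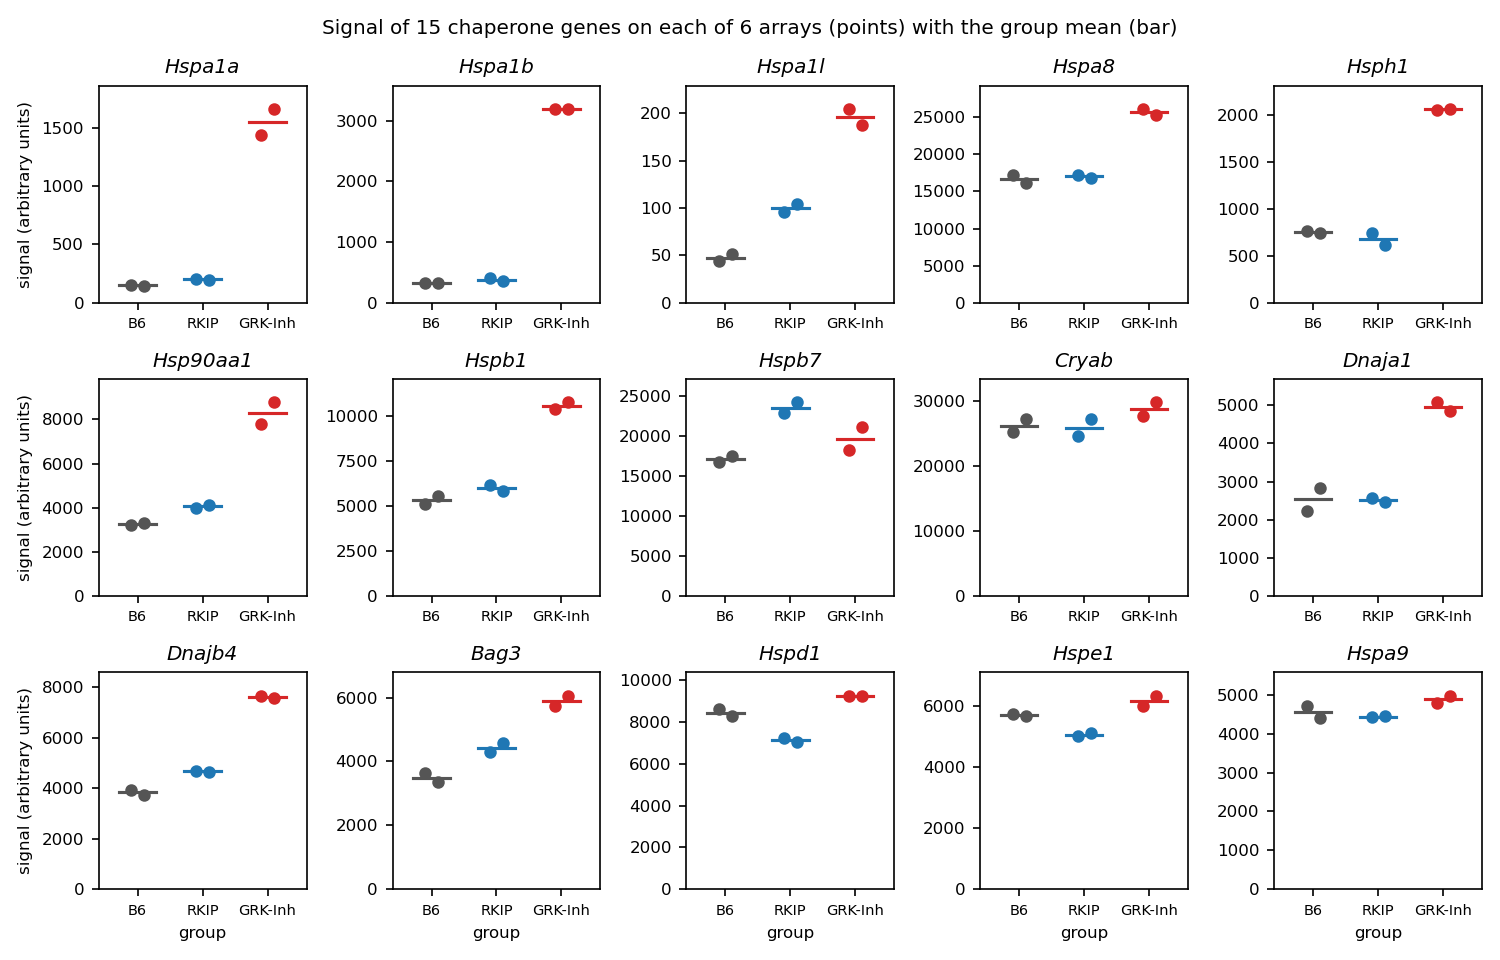
Signal in arbitrary units on a linear axis from 0, for 15 members in the 3 groups. Points are the 2 arrays of a group and bars the group mean. GRK-Inh-transgenic arrays stand above all others for Hspa1a, Hspa1b, Hspa8, Hsph1, Hsp90aa1, Hspb1, Dnaja1, Dnajb4 and Bag3. They also do for Hspa1l, and for Cryab, Hspa9, Hspd1 and Hspe1, which were not called against control. Hspb7 is highest and Hspd1 and Hspe1 are lowest in RKIP-transgenic hearts.

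J proteins of types A and B deliver clients to HSP70. Dnaja1, a type A member of the cytosol, gave 2225 and 2841 in control, 2568 and 2470 in RKIP-transgenic and 5075 and 4849 in GRK-Inh-transgenic hearts. It rose by 0.97 ± 0.090 in GRK-Inh-transgenic hearts (adjusted p = 5.81e-05), and RKIP-transgenic arrays lay inside the range of the control arrays (0.00 ± 0.090). Dnaja4 rose in both lines, by 0.50 ± 0.082 (adjusted p = 0.00224) in GRK-Inh-transgenic and 0.39 ± 0.082 (adjusted p = 0.0126) in RKIP-transgenic hearts. The latter call was lost without the first RKIP-transgenic array (adjusted p = 0.0926) or the first control array (adjusted p = 0.0975).

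Of the type B J proteins, Dnajb4 gave 3932 and 3723 in control, 4685 and 4650 in RKIP-transgenic and 7660 and 7583 in GRK-Inh-transgenic hearts. The groups were fully separated, with rises over control of 0.98 ± 0.044 (adjusted p = 2.79e-07) and, in RKIP-transgenic hearts, 0.28 ± 0.044 (adjusted p = 0.00262). Dnajb1 (HSP40), the classical heat-inducible partner of HSP70, gave 654 and 689 in control, 752 and 680 in RKIP-transgenic and 1212 and 1027 in GRK-Inh-transgenic hearts, and rose by 0.69 ± 0.092 in GRK-Inh-transgenic hearts (adjusted p = 0.000646), with an RKIP-transgenic difference of 0.08 ± 0.092 that was not called. Dnajb5, known from cardiac muscle, and Dnajb2, known from neurons, rose by 0.90 ± 0.096 and 0.60 ± 0.068 in GRK-Inh-transgenic and by 0.36 ± 0.096 and 0.35 ± 0.068 in RKIP-transgenic hearts. Their RKIP-transgenic calls were lost without the first RKIP-transgenic array (adjusted p = 0.221 and 0.0585). The Dnajb5 call was also lost without either GRK-Inh-transgenic (0.0512 and 0.0523) or either control array (0.0627 and 0.195), and the Dnajb2 call without the second control array (0.0607).

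The type C J proteins are a diverse family whose members share little more than the J domain. In GRK-Inh-transgenic against control hearts their log2 fold changes ranged from -0.23 to 0.36 over the 21 tested genes, and none was called. Bag3, the BAG protein that links HSP70 and small heat shock proteins and keeps the sarcomere turned over, gave 3635 and 3343 in control, 4285 and 4566 in RKIP-transgenic and 5750 and 6061 in GRK-Inh-transgenic hearts. All 3 groups were separated. Bag3 rose by 0.75 ± 0.056 (adjusted p = 1.09e-05) in GRK-Inh-transgenic and by 0.34 ± 0.056 (adjusted p = 0.00337) in RKIP-transgenic hearts, and the other 5 BAG genes were not called in any comparison.

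Hspa1l apart, all 16 calls of GRK-Inh-transgenic against control were kept with each of the 6 arrays left out in turn. The other probe sets of the called members moved the same way in 24 of 25 cases. Of the 25, 18 passed the test themselves when probe sets were tested one by one. In RKIP-transgenic against control hearts 14 of 16 moved the same way and 7 passed. Between the lines 19 of 20 moved the same way and 14 passed. Probe sets of a gene were read on the same arrays and are not independent.

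In RKIP-transgenic against control hearts, 13 of 63 tested members were higher and 2 lower (12 and 2 of 62 without Hspa1l), where 10.8% of all tested genes were called (5.32% higher and 5.51% lower). The median log2 fold change was 0.11 over the members and -0.02 over all genes. Hspa1l apart, the called members with the largest changes were Hspb7 (0.46), Hspa4 (0.40), Dnaja4 (0.39), Dnajb5 (0.36) and Dnajb2 (0.35). This comparison shares its control arrays with the comparison of GRK-Inh-transgenic hearts, so the calls that appear in both are not independent.

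Many of these calls depended on single arrays. With each array left out in turn, 6 of the 14 other than Hspa1l were always kept: Hspd1, Dnaja2, Dnajb4, Bag3, Hspa4 and Hspb7. The count fell to 7 without the first RKIP-transgenic and to 8 without the first control array, and 1 of these 14 (Hspa4) was kept when the variance was moderated without a trend on signal. The call of Hspb8 was lost without either RKIP-transgenic array (adjusted p = 0.0617 and 0.0563) or the second control array (0.0659). Averaging over the probe sets of a gene also ended the calls of Hspa4 (0.06, adjusted p = 0.615) and Hsp90aa1 (0.19, adjusted p = 0.276). The same held for Dnaja2 (0.25, adjusted p = 0.0661), Hspb8 (0.22, adjusted p = 0.0628) and Dnajb5 (0.23, adjusted p = 0.169). Hspe1 (-0.17, adjusted p = 0.131) and Dnajc1 (0.13, adjusted p = 0.544) lost their calls in this way too.

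Both mitochondrial chaperonin genes fell in RKIP-transgenic hearts. Hspd1 encodes HSP60, the folding barrel of the mitochondrial matrix, and Hspe1 its lid HSP10. Hspd1 gave 8620 and 8289 in control, 7255 and 7064 in RKIP-transgenic and 9271 and 9247 in GRK-Inh-transgenic hearts, so the RKIP-transgenic arrays were the lowest and the GRK-Inh-transgenic arrays the highest. The log2 fold change against control was -0.24 ± 0.040 in RKIP-transgenic (adjusted p = 0.0036) and 0.13 ± 0.040 in GRK-Inh-transgenic hearts (adjusted p = 0.0545, not called). Hspe1 had the same order, with 5736 and 5673 in control, 5016 and 5114 in RKIP-transgenic and 5992 and 6345 in GRK-Inh-transgenic hearts. Its difference from control was -0.17 ± 0.044 in RKIP-transgenic hearts (adjusted p = 0.0343), a call that was lost without any 1 of the RKIP-transgenic or control arrays (adjusted p 0.0894 to 0.159). In GRK-Inh-transgenic hearts Hspe1 was not called (0.11 ± 0.044, adjusted p = 0.127).

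Members called in RKIP-transgenic hearts and not in GRK-Inh-transgenic hearts, beside Hspb7, Hspd1 and Hspe1, were Dnaja2, Hspb6 and Dnajc1. In GRK-Inh-transgenic hearts Dnaja2 (0.14, adjusted p = 0.0731), Hspb6 (0.13, adjusted p = 0.0521) and Dnajc1 (0.25, adjusted p = 0.0586) differed from control with the same sign. With the mean over probe sets, Hspb6 (0.13, adjusted p = 0.0431), Hspb7 (0.21, adjusted p = 0.0107) and Hspd1 (0.13, adjusted p = 0.0426) were called higher there. For Hspb6 and Hspd1 the averaging left the value itself unchanged, and only the adjusted p moved. Dnaja2, a type A partner of Hspa8, gave 10773 and 9861 in control, 12475 and 12552 in RKIP-transgenic and 11132 and 11570 in GRK-Inh-transgenic hearts, and rose by 0.28 ± 0.046 (adjusted p = 0.00334). Hspb6 (HSP20), a phosphorylated small heat shock protein of muscle, gave 10096 and 10663 in control, 11750 and 11649 in RKIP-transgenic and 11244 and 11482 in GRK-Inh-transgenic hearts, and rose by 0.17 ± 0.039 (adjusted p = 0.0178). Its call was lost without either RKIP-transgenic array (adjusted p = 0.0909 and 0.0659) or the first control array (0.0981). Dnajc1 rose by 0.28 ± 0.076 (adjusted p = 0.0385), a call lost with any 1 of the 6 arrays left out (adjusted p 0.0502 to 0.198). A direct test between the lines did not call Dnaja2 (-0.14 ± 0.046, adjusted p = 0.0896), Hspb6 or Dnajc1, so these 3 were not shown to differ between them.

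**Figure D3:**
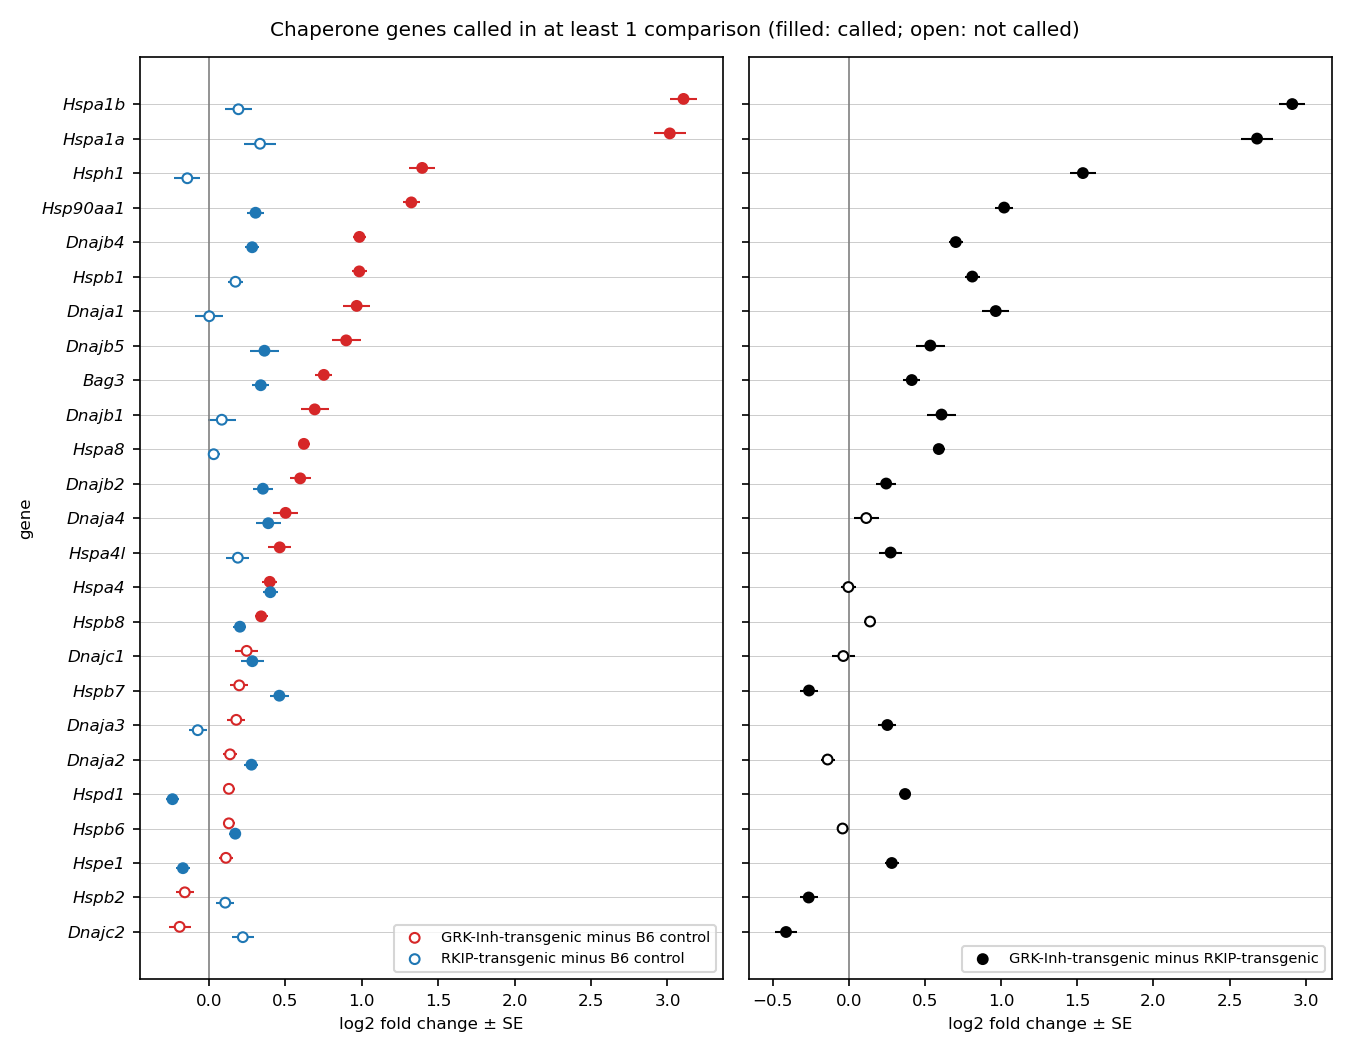
Log2 fold change with its SE for the 25 members called in at least 1 comparison (Hspa1l left out), ordered by the GRK-Inh-transgenic value. Left, each line against control; right, GRK-Inh-transgenic minus RKIP-transgenic; filled points are called and open points are not. The GRK-Inh-transgenic points reach 3.10 (Hspa1b), whereas the RKIP-transgenic points lie between -0.24 (Hspd1) and 0.46 (Hspb7).

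The direct comparison of GRK-Inh-transgenic with RKIP-transgenic hearts does not use the control arrays as a group and tests whether the lines differ. It called 17 of 63 members higher and 3 lower in GRK-Inh-transgenic hearts (16 and 3 of 62 without Hspa1l), where 8.82% of all tested genes were called (4.35% higher and 4.47% lower). The median log2 fold change was 0.10 over the members and -0.02 over all genes. Hspa1b (2.91 ± 0.087, adjusted p = 1.64e-08), Hspa1a (2.68 ± 0.11), Hsph1 (1.54 ± 0.085) and Hsp90aa1 (1.02 ± 0.057) differed most. Dnaja1 (0.96 ± 0.090), Hspb1 (0.81 ± 0.051), Dnajb4 (0.70 ± 0.044), Dnajb1 (0.61 ± 0.092), Hspa8 (0.59 ± 0.039) and Bag3 (0.41 ± 0.056) were also higher. These 10 calls were kept with any array left out, as were 13 of the 19 other than Hspa1l; 8 of these 19 were kept with a variance without trend (Bag3 and Dnajb1 were not among them), and the count was 13 without the second RKIP-transgenic array.

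Both chaperonin genes were higher in GRK-Inh-transgenic than in RKIP-transgenic hearts, Hspd1 by 0.37 ± 0.040 (adjusted p = 0.000251) and Hspe1 by 0.28 ± 0.044 (adjusted p = 0.00318). Their 4 transgenic signals per gene did not overlap between the lines. The 3 members that were lower were Dnajc2, Hspb2 and Hspb7. Dnajc2, a J protein of the ribosome, gave 992 and 975 in control, 1148 and 1162 in RKIP-transgenic and 896 and 815 in GRK-Inh-transgenic hearts, and was lower by a log2 fold change of -0.41 ± 0.072 (adjusted p = 0.00536). With the mean over its probe sets the Dnajc2 difference was -0.05 (adjusted p = 0.817). Hspb2, a muscle small heat shock protein whose gene is next to Cryab on chromosome 9, gave 1587 and 1658 in control, 1786 and 1715 in RKIP-transgenic and 1446 and 1452 in GRK-Inh-transgenic hearts and differed by -0.26 ± 0.059 (adjusted p = 0.0203). That call was lost without any 1 of the RKIP-transgenic or GRK-Inh-transgenic arrays (adjusted p 0.0566 to 0.123).

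Further calls between the lines were smaller or less stable. Hspa1l was 0.72 higher in GRK-Inh-transgenic hearts, a value given without a test, as above. Dnajb5 (0.53 ± 0.096) lost it without the second RKIP-transgenic array (adjusted p = 0.0502). Dnajb2 (0.24 ± 0.068, adjusted p 0.0554 to 0.218) and Hspa4l (0.27 ± 0.076, adjusted p 0.0602 to 0.26) lost it with any 1 of the 6 arrays left out, and also with the mean over probe sets (0.0526 for both). Dnaja3, the type A J protein of mitochondria, was higher by 0.25 ± 0.059 (adjusted p = 0.0239), a call lost without either RKIP-transgenic array or the second GRK-Inh-transgenic array (adjusted p 0.067 to 0.167) or with the mean over probe sets (0.291). For Dnajb2 the mean over probe sets left the value itself unchanged (0.24), and only the adjusted p moved. Hspa4, which rose in both lines, did not differ between them beyond its error: the 95% interval of the difference was -0.11 to 0.10.

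**Figure D4:**
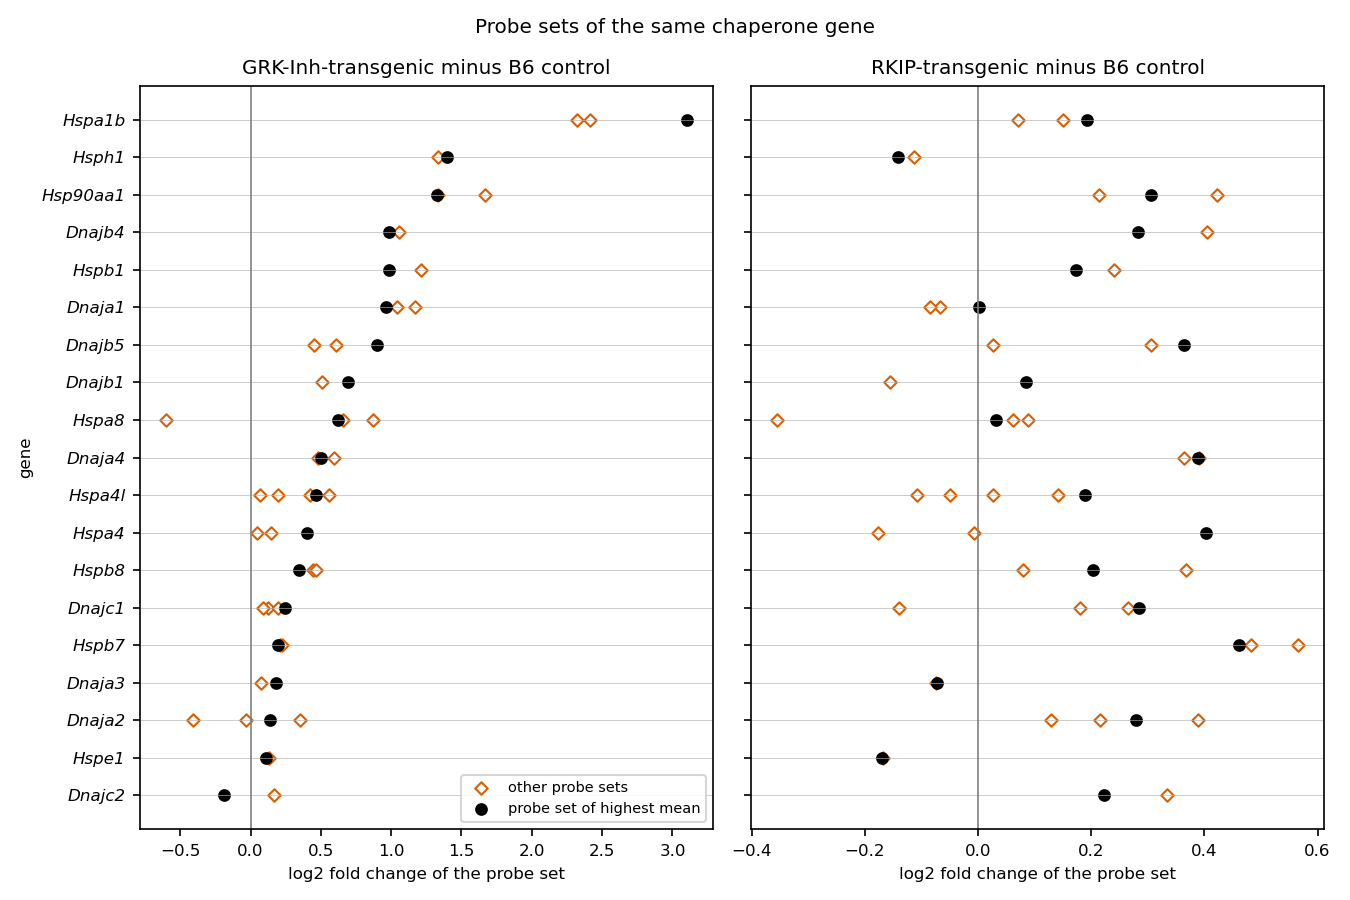
Log2 fold change of each tested probe set for the 19 called members that have more than 1 (55 probe sets), for GRK-Inh-transgenic (left) and RKIP-transgenic (right) against control. Filled circles are the probe set used for the gene and open diamonds the others. On the left, the diamonds of Hspa1b to Dnaja4 lie right of 0 with 1 exception in Hspa8 (-0.60), whereas on the right the diamonds of Hspa4 and Hspa4l spread around 0.

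The partners of these chaperones were read from a list of 55 genes chosen for function, of which 50 were measured and 48 tested. In GRK-Inh-transgenic against control hearts 12 (25.0%) were higher and 0 lower, where 5.86% of all tested genes were called higher and 7.27% lower. Of the 21 co-chaperones of HSP90 and HSP70, 8 were higher. Chordc1, an HSP90 co-chaperone, gave 1776 and 1750 in control, 1620 and 1759 in RKIP-transgenic and 3189 and 2652 in GRK-Inh-transgenic hearts, and rose by 0.71 ± 0.081 (adjusted p = 0.000247). Ahsa1 and Ahsa2, which activate the ATPase of HSP90, rose by 0.61 ± 0.062 and 0.49 ± 0.079. Cdc37l1 (0.44 ± 0.082), a relative of the kinase co-chaperone CDC37, and the immunophilin gene Fkbp5 (0.56 ± 0.11) were also higher. With the mean over probe sets Ahsa1 (0.26, adjusted p = 0.218), Cdc37l1 (0.26, adjusted p = 0.0751) and Fkbp5 (0.44, adjusted p = 0.074) were not called. Without the second control array the adjusted p of Cdc37l1 was 0.0503. The call of Fkbp5 was lost without the second GRK-Inh-transgenic array (adjusted p = 0.0593) or the first control array (0.0575). Pfdn2, a subunit of the chaperone prefoldin, rose by 0.32 ± 0.073 (adjusted p = 0.0153), a call lost without either GRK-Inh-transgenic array (0.0937 and 0.0573) or the second control array (0.102). The count of 12 fell to 7 without the first GRK-Inh-transgenic array and to 4 with a variance without trend. The heat shock factor gene Hsf2 was not called in any comparison (log2 fold change 0.03 in GRK-Inh-transgenic hearts).

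In RKIP-transgenic against control hearts 2 of the 48 partner genes were higher and 3 lower, a share of 10.4% near the 10.8% of all tested genes, so these counts are no result about the partner genes as a group. Clpb and Clpp, a disaggregase and a protease subunit of mitochondria, rose by 0.45 ± 0.072 (adjusted p = 0.00282) and 0.33 ± 0.061 (adjusted p = 0.00619), whereas the chaperonins Hspd1 and Hspe1 of the same compartment fell. The mean over the Clpp probe sets was not called (0.21, adjusted p = 0.0513). Clpb was also called higher in GRK-Inh-transgenic than in control hearts (0.26, adjusted p = 0.0362). GRK-Inh-transgenic minus RKIP-transgenic was not called for Clpb (-0.19, adjusted p = 0.141). With the mean over its probe sets these 2 values were 0.03 (adjusted p = 0.886) and -0.37 (adjusted p = 0.0357). The prefoldin gene Vbp1 (-0.34 ± 0.048) and the co-chaperone gene Cacybp (-0.27 ± 0.063) were lower. The Cacybp call was lost without the first RKIP-transgenic array (adjusted p = 0.137) or either control array (0.122 and 0.0512). Serpinh1 (HSP47), the heat-inducible collagen chaperone of the endoplasmic reticulum, gave 4035 and 4317 in control, 2271 and 2286 in RKIP-transgenic and 5018 and 5222 in GRK-Inh-transgenic hearts. It fell in RKIP-transgenic hearts (-0.86 ± 0.051, adjusted p = 2.96e-06) and rose in GRK-Inh-transgenic hearts (0.29 ± 0.051, adjusted p = 0.00338), while summed fibroblast markers were lower in both lines; their part in this result was not tested.

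Between the lines 15 partner genes (31.2%) were higher and 2 (4.17%) lower in GRK-Inh-transgenic hearts, where 4.35% of all tested genes were called higher and 4.47% lower. Serpinh1 (1.15 ± 0.051, adjusted p = 3.62e-07), Chordc1 (0.77 ± 0.081), Ahsa2 (0.64 ± 0.079), Ahsa1 (0.62 ± 0.062), Stip1 (0.50 ± 0.082) and Cacybp (0.46 ± 0.063) differed most. The mean over the Ahsa1 probe sets was not called here either (0.32, adjusted p = 0.172). Stip1 (HOP), which bridges HSP70 and HSP90, gave 641 and 589 in control, 531 and 522 in RKIP-transgenic and 781 and 746 in GRK-Inh-transgenic hearts. Of the 8 subunits of the cytosolic chaperonin CCT, which folds actin and tubulin, 5 were higher in this comparison and 1 in GRK-Inh-transgenic against control hearts. The count of 17 calls between the lines fell to 8 without the first RKIP-transgenic array, to 9 without the first and 10 without the second GRK-Inh-transgenic array, and to 11 without the second RKIP-transgenic array.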

How the data were processed

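Heart RNA of 6 mouse samples was measured on Affymetrix arrays of 45101 probe sets, 2 arrays per group. The authors deposited a linear signal intensity per probe set, computed and scaled with GCOS per the submitters' processing notes; a 2% trimmed mean of 300.002 on each array was found when the values were checked. Sample titles gave the groups and replicate numbers, and no array was left out.

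Symbols came from the platform annotation: 34945 probe sets had 1, 932 had several and 9160 had none (64 controls apart), and the last 2 kinds were not tested as genes. All 71 members matched a RefSeq gene identifier. Signals were used as log2(signal + 50) without further normalization, with the probe set of highest mean per gene. The 11254 of 18193 genes with a mean log2 value of at least 6.65 were tested (limma 3.58.1, R 4.3.3) in 1 model over 6 arrays (3 residual and 7.60 prior degrees of freedom, trend on signal), two-sided, for 3 comparisons. The number of arrays limits the precision; the median SE was 0.115. The procedure was tested on simulated data. Promoter sequences came from RefSeq (GRCm38.p6). Protein sequences were not used here.

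The members, gene lists and alternatives were chosen with earlier results of these data known. Named were 16 chaperone genes listed by function, where measured, every called member with an absolute log2 fold change of at least 0.5 and other called members up to 20 per comparison, and up to 6 called partner genes per comparison; Hsf2, Dnajb6 and members with separately called probe sets were named after their values were seen, and the counts without Hspa1l were added then too. Alternatives were quantile normalization, arrays shifted to a common median, an offset of 16 or 200, no filter or one at the 75th percentile, the mean over probe sets, probe sets one by one, variances without trend or robust, a fit on the compared groups alone, a replicate block, thresholds of 0.01 and 0.1, and each array left out. Figures used Python 3.11.15 and matplotlib 3.10.9.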

Additional observations from a re-analysis of the deposited data

Results flagged for a closer look

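Probe sets that did not stand for their gene were tested one by one, 68 of them among the members. In GRK-Inh-transgenic against control hearts 8 passed the test where the gene itself was not called. In RKIP-transgenic against control hearts 3 did. The same Dnajc28 probe set passed in both comparisons, which share the control arrays. All 11 differences were positive. Of all tested genes, 5.86% and 5.32% were called higher in these comparisons. These shares come from the test on genes, and no share over all probe sets tested one by one is given here. The 3 of 68 in RKIP-transgenic hearts are not above the gene share, so that count is no result about the members.

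In GRK-Inh-transgenic against control hearts, another probe set of Hspa13, an HSP70 of microsomes, had a log2 fold change of 0.68 (limma adjusted p = 0.00206), against 0.06 for the probe set used. Another Dnajc28 probe set gave 0.50 (adjusted p = 0.0463) and one of Dnaja2 gave 0.35 (adjusted p = 0.00339). The remaining Dnaja2 probe sets had negative values (-0.03 and -0.41) that were not called. Other probe sets of Cryab (0.28, adjusted p = 0.00287), mitochondrial Hspa9 (0.27, adjusted p = 0.00345) and Dnajb6 (0.26, adjusted p = 0.0465) passed too. Both other Hspb7 probe sets passed, at 0.21 (adjusted p = 0.0399) and 0.22 (adjusted p = 0.0157).

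In RKIP-transgenic against control hearts the second Dnajc28 probe set gave 0.56 (adjusted p = 0.0368). A second probe set of Dnajc2 gave 0.33 (adjusted p = 0.0396), against 0.22 for the one used, and the other Hspb1 probe set gave 0.24 (adjusted p = 0.0073), against 0.17.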

How the results depend on the processing

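Against control, 17 members were called in GRK-Inh-transgenic and 15 in RKIP-transgenic hearts, and 20 between the lines, each with Hspa1l included; for the partner genes the counts were 12, 5 and 17. With a variance without trend, the member counts were 17, 2 and 9 and the partner counts 4, 2 and 5. At a threshold of 0.01, 8 members were called in RKIP-transgenic hearts, and 7 partner genes in GRK-Inh-transgenic hearts and 9 between the lines. At 0.1, 27 members and 19 partner genes were called in GRK-Inh-transgenic hearts and 9 partner genes in RKIP-transgenic hearts. With each array left out in turn, member counts ranged from 17 to 19 (GRK-Inh-transgenic), 7 to 13 (RKIP-transgenic) and 13 to 19 (between the lines), and partner counts from 7 to 12, 4 to 6 and 8 to 15. No named gene with a call changed sign under any alternative. Of the calls, 16 of 17, 0 of 15 and 8 of 20 were kept under every alternative in which the gene was tested. The 16 include Hspa1l, which is given above without a test and was tested under 19 of the 20 alternatives. The cause of the losses was not tested.

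Same-numbered arrays did not deviate together (r of -0.035 to 0.0258 across genes, which are not independent), so the labels' numbers were not taken as pairs. With the replicate number as a block, 19, 15 and 19 members and 13, 5 and 17 partner genes were called. With 2 arrays per group, signals near background limit the sizes given, as for Hspa1l.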
